A study of Mus musculus with 40 samples.

Results

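Single mouse embryos at the 4-cell stage differed in how much mouse RNA their libraries held relative to a spike-in. The 20 embryos labelled siCon_4C or siRif1_4C, of 40 embryos in the series, were chosen by the ratio of mouse gene counts to counts of ERCC RNA, a mix of synthetic transcripts added with the lysis buffer. The 10 embryos with the lowest ratios (6 siRif1 and 4 siCon) formed the low-ratio group, and the 10 with the highest ratios (7 siRif1 and 3 siCon) the high-ratio group. All embryos came from zygotes that had been injected 17 to 18 hours after hCG with siRNA at 20 uM, against Rif1, a regulator of replication timing, in siRif1 embryos or a control siRNA in siCon embryos. Cumulus cells had been removed with hyaluronidase. The embryos were grown in KSOM medium and collected as 4-cell embryos at 63 hours. The 8-cell embryos used for comparison (12 siRif1 and 8 siCon) were collected at 70 hours. All came from crosses of (C57BL/6J x CBA) with DBA mice. The substrain number after DBA differs from label to label and was not used, and litters and injection days were not given, so p-values measure only the spread between these embryos. Each library was made from 1 embryo with SMART-seq2, which amplifies polyadenylated RNA as full-length cDNA without strand information and without molecular identifiers.

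In the mouse, the embryo starts with RNA and mitochondria made in the oocyte. Maternal messengers lose their poly(A) tails and are degraded, and the zygotic genome takes over transcription, mainly at the 2-cell stage. Nucleoli mature from precursor bodies as ribosomal DNA becomes active over the cleavage divisions, while the mitochondrial genome is transcribed from its own promoters and does not replicate its DNA until later. The RNA content of a cleavage-stage embryo therefore holds a maternal, a zygotic and a mitochondrial component.

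The ratio ran from 12.9 to 35.8 mouse counts per ERCC count in low-ratio embryos (median 21.9) and from 36.6 to 57.1 in high-ratio embryos (median 43.1). These values chose the groups and are a description. Within the low-ratio group, 8 embryos lay between 12.9 (siCon 5) and 24.4 (siRif1 1), and 2 lay next to the boundary, siCon 6 at 33.6 and siRif1 10 at 35.8. The first embryo above the boundary was siRif1 8 at 36.6. Mouse gene counts ran from 704863 to 3424858 per low-ratio embryo (median 2651805.5) and from 2403975 to 8890551 per high-ratio embryo (median 3337988.5). ERCC counts ran from 29714 to 185270 (median 122006) in low-ratio embryos and from 42134 to 199075 (median 80505) in high-ratio embryos. Less embryo RNA and more spike-in both lower the ratio, and they cannot be told apart from these counts. The split was the same for 20 of 20 embryos when genes of the mitochondrial genome, or these and the ribosomal RNA entry described below, were left out of the ratio. The 8-cell embryos had ratios from 32.3 to 90.5.

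**Figure D1:**
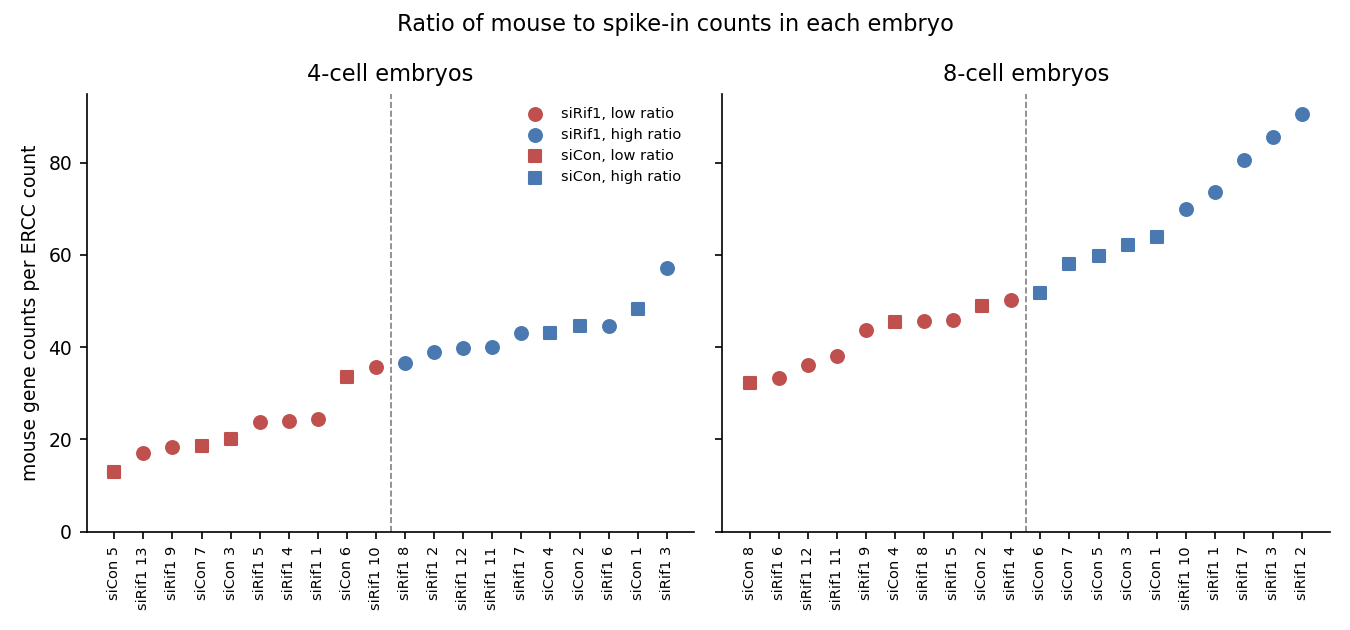
Mouse gene counts per ERCC count (y axis) in each embryo, ranked from low to high along the x axis, for 4-cell (left) and 8-cell (right) embryos. Circles are siRif1 and squares siCon embryos, red is the low-ratio and blue the high-ratio group, and the dashed line is the boundary; 8 of the 10 low-ratio 4-cell embryos sit at or below 24.4.

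The log2 ratio averaged 5.00 ± 0.54 in 13 siRif1 embryos and 4.83 ± 0.75 in 7 siCon embryos (SD), a difference of 0.17 (exact two-sided permutation test, p = 0.54), and the split by siRNA gave p = 1.0 in Fisher's exact test. Rif1 itself had 97.7 to 422 CPM in siRif1 embryos (median 167) and 332 to 629 CPM in siCon embryos (median 412). CPM are counts relative to the embryo's mouse gene total after TMM scaling, which sets the bulk of genes equal between embryos, so all gene results below are relative levels within an embryo's RNA. Between low- and high-ratio embryos, with the siRNA label as a covariate, Rif1 differed by 0.12 on the log2 scale (SE 0.25) and did not pass (adjusted p = 0.85). siCon embryos 3 and 7, both in the low-ratio group, stood apart from the other 18 in paternally expressed genes. Snrpn, an imprinted splicing factor gene read from the paternal copy, had 1.10 CPM in siCon 3 and 2.31 CPM in siCon 7, against 37.9 to 108.5 CPM in the other 18 embryos. Changes of call without this pair are given beside the genes and lists below. Of 10 cumulus and granulosa markers, 4 (Fshr, Has2, Inhba and Ptx3) had no count in any of the 20 embryos, and the summed level of the 10 was 0 to 4.49 CPM in low-ratio embryos and 0 to 2.02 CPM in high-ratio embryos. In a wider list of 21 such genes, Amhr2, the receptor gene for anti-Müllerian hormone, had 26.5 to 123.4 CPM in low-ratio and 62.3 to 111.8 CPM in high-ratio embryos (log2 fold change -0.17, adjusted p = 0.74). The part of other cell types in the results was not tested.

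The clearest difference in library composition was in mitochondrial RNA. Genes of the mitochondrial genome took 3.81% to 7.64% of mouse counts in low-ratio embryos (median 5.91%) and 3.15% to 4.50% in high-ratio embryos (median 3.71%). In 7 of 10 low-ratio embryos the share was above every high-ratio embryo, and the 3 that overlapped were siCon 6, siRif1 10 and siRif1 13. The difference of the means, 2.06 percentage points, passed a two-sided permutation test with 100000 resamples (p = 2e-04, adjusted over 7 library measures 0.0014). The mouse gene total is the denominator of this share and the numerator of the ratio. Tests of this share are therefore not independent of how the embryos were chosen. Multimapping reads made up 6.38% ± 0.47 in low-ratio and 5.66% ± 0.30 in high-ratio embryos (adjusted p = 0.0025, permutation test; SD, n = 10 embryos per group here and below). Reads in no gene were also higher, at 11.3% ± 2.3 in low-ratio and 9.31% ± 1.28 in high-ratio embryos (adjusted p = 0.043), and reads ambiguous between genes were lower, at 2.73% ± 0.45 in low-ratio and 3.31% ± 0.27 in high-ratio embryos (adjusted p = 0.0030). Unmapped reads (adjusted p = 0.17) and the share of the 50 most abundant genes (adjusted p = 0.057) did not pass the threshold of 0.05. The multimapping, no-gene, ambiguous and unmapped shares are of all reads counted, with mouse and ERCC counts in the denominator. The share of the 50 most abundant genes is of the mouse gene total. The tests of these shares are therefore also not independent of how the embryos were chosen. The number of genes detected was 13860 ± 837 in low-ratio and 13580 ± 412 in high-ratio embryos (adjusted p = 0.35). Detection was compared after thinning every library to 704863 mouse counts. Without siCon 3 and 7 the mitochondrial share differed by 1.90 percentage points (adjusted p = 0.0035, exact permutation test). At the 8-cell stage, split in the same way, the mitochondrial share was 3.90% to 5.79% in low-ratio embryos (median 5.33%) and 2.80% to 4.99% in high-ratio embryos (median 3.60%).

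**Figure D2:**
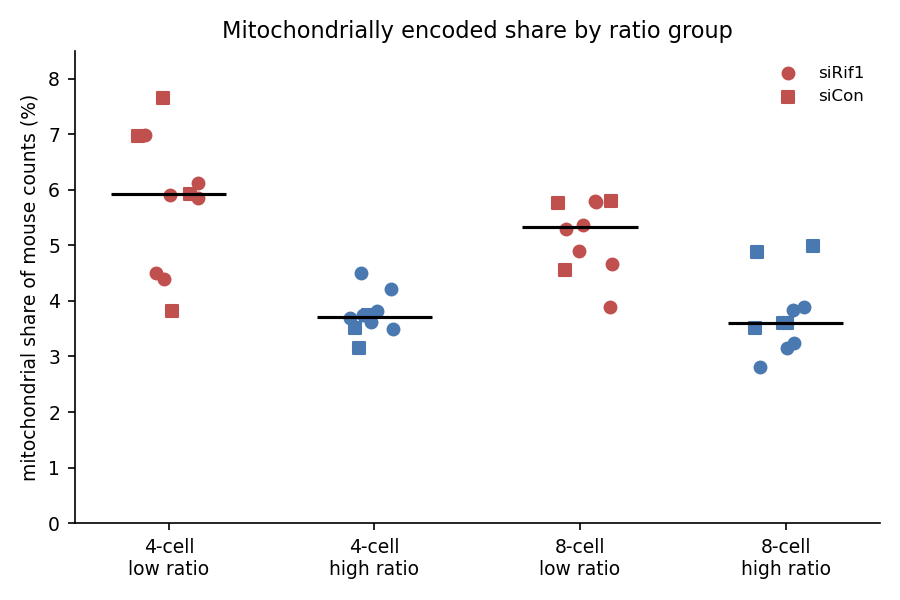
Share of mouse counts on the mitochondrial genome (y axis, percent) in low- and high-ratio embryos at the 4-cell and 8-cell stage (x axis). Points are embryos, circles siRif1 and squares siCon, and bars are medians; the 4-cell medians are 5.91% in the low-ratio and 3.71% in the high-ratio group.

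Counts on the mitochondrial genome need care, because the mouse nuclear genome carries a copy of part of it. GENCODE M21 annotates unprocessed pseudogenes on chromosome 1 (GRCm38, minus strand) that align without gaps to mitochondrial genes. Gm28661 (chr1:24614885-24615565) is identical to mt-Co2 over 681 bases, Gm10925 (chr1:24613974-24614651) to mt-Atp6 over 678 bases, Gm28437 (chr1:24613189-24613971) to mt-Co3 over 783 bases and Gm28439 (chr1:24611535-24612410) to mt-Nd4 over 876 bases. Gm29216 (chr1:24615706-24616197) and mt-Co1 differ at 6 of 492 aligned bases, which gives 98.8% identity and an identical run of 479 bases. The 90 bases that hold these differences, transcript strand, are shown because they are the only place within the aligned stretches where the bases of copy and gene differ, with differing bases in capitals (GENCODE M21 transcripts, chrM:6381-6470 for mt-Co1 and chr1:24616108-24616197 for Gm29216).
mt-Co1: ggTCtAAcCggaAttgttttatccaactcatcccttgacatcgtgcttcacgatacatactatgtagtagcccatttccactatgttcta
Gm29216: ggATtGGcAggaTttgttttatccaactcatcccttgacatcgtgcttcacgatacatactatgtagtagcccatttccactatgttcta
A read inside an identical stretch fits both places, and multimapping reads were set aside and counted for neither. The copies span nearly the whole of mt-Co2, mt-Atp6 and mt-Co3, but 876 of 1378 bases of mt-Nd4 and 492 of 1545 bases of mt-Co1. Per kilobase, mt-Co3 averaged 68.7 CPM in low-ratio and 32.9 CPM in high-ratio embryos, mt-Co2 averaged 171 CPM in low-ratio and 73.5 CPM in high-ratio embryos, and mt-Atp6 averaged 257 CPM in low-ratio and 136 CPM in high-ratio embryos. Of the genes copied in part, mt-Nd4 averaged 2200 CPM per kilobase in low-ratio and 1130 in high-ratio embryos, and mt-Co1 averaged 3220 in low-ratio and 2100 in high-ratio embryos. Of the genes not compared, the lowest were mt-Nd4l at 37.1 CPM per kilobase in low-ratio and 22.1 in high-ratio embryos and mt-Atp8 at 37.8 in low-ratio and 29.6 in high-ratio embryos. mt-Cytb was the highest, with 11900 CPM per kilobase in low-ratio and 7740 in high-ratio embryos. The part of set-aside reads in the levels of these genes was not tested. Whether the chromosome 1 copy also holds genes that were not compared was not tested, so those genes cannot be taken as uncopied.

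Across genes, 10603 were tested and 137 passed an adjusted p below 0.05 in edgeR's quasi-likelihood test (1.29%), 103 higher in low-ratio embryos (0.971%) and 34 lower (0.321%). The change was at least 2-fold for 65 of the 137, and 1791 genes had an unadjusted p below 0.05. All 137 kept their direction and an unadjusted p below 0.05 without siCon 3 and 7, where 101 of them and 161 genes in all (1.47% of 10963) passed the threshold. Adjusted p-values of the 137 ran from 0.0049 to 0.049, and the count past the threshold depended on single embryos. Of the low-ratio embryos, leaving out siCon 5 left 9 genes, siRif1 4 left 11, siRif1 1 left 30, siRif1 9 left 60, siRif1 5 left 83, siCon 6 gave 274 and siRif1 13 gave 302. Of the high-ratio embryos, leaving out siCon 1 or siRif1 3 left 3 genes each, siCon 2 left 4, siRif1 6 left 13, siCon 4 left 14, siRif1 2 left 22, siRif1 11 left 67 and siRif1 12 left 71. In every one of these 20 refits the tested members of the 137, at least 134, kept their direction and an unadjusted p below 0.05. These refits, and the fit without siCon 3 and 7, reuse embryos that selected the 137. Keeping direction and an unadjusted p below 0.05 was therefore largely set by the selection and is a description only. With the log mouse total as a further covariate no gene passed in edgeR, and 1774 had an unadjusted p below 0.05.

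The scaling matters for how these changes are read. On the ERCC scale, where counts are set against the spike-in, 10031 of the 10603 genes were lower in low-ratio embryos, with a median log2 fold change of -0.93, as the choice of embryos fixes. Of the 103 genes that were relatively higher, 57 were above 0 and 46 below 0 on that scale, with a median of 0.06. All 34 that were relatively lower were below 0, with a median of -1.73. These values are a description with no test.

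**Figure D3:**
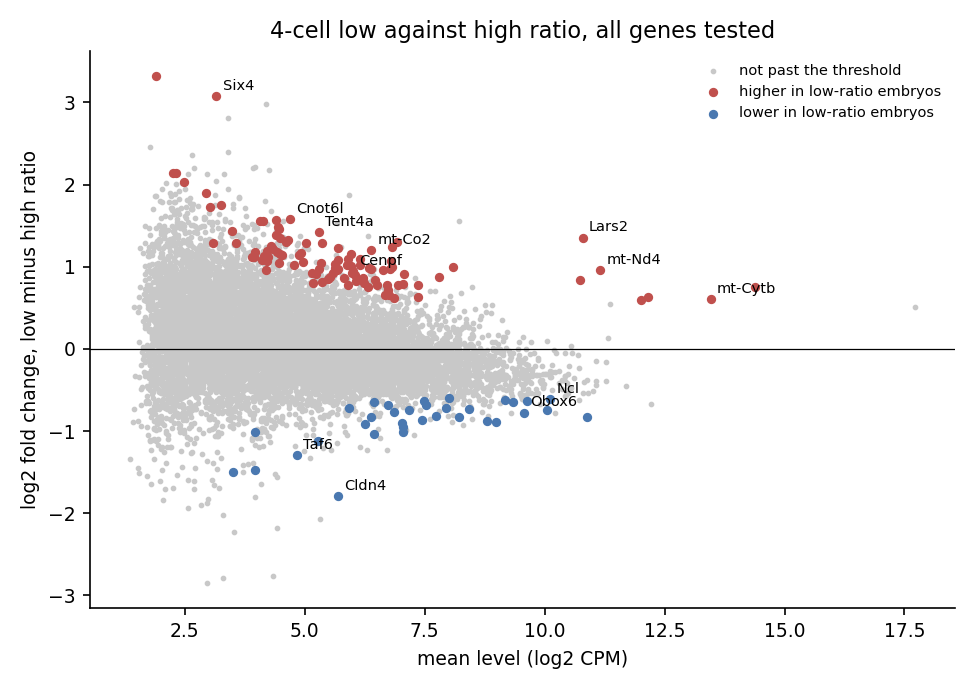
Log2 fold change, low minus high ratio (y axis), against mean level in log2 CPM (x axis) for the 10603 genes tested at the 4-cell stage. Red marks the 103 genes higher and blue the 34 genes lower in low-ratio embryos at an adjusted p below 0.05; Lars2 and mitochondrial genes are the highest-level red points.

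Of the 13 protein-coding genes of the mitochondrial genome, 9 rose and none fell in low-ratio embryos, with a median log2 fold change of 0.68 against 0.02 over all genes tested. mt-Co2, a cytochrome c oxidase subunit gene, had 50.4 to 216 CPM in low-ratio embryos (median 95.5) and 37.1 to 62.6 CPM in high-ratio embryos (median 49.7). In 9 of 10 low-ratio embryos it was above every high-ratio embryo (log2 fold change 1.21, SE 0.23, adjusted p = 0.021). mt-Nd4, a complex I subunit gene, had 1597 to 5328 CPM (median 2899) in low-ratio and 1275 to 1916 CPM (median 1576) in high-ratio embryos (log2 fold change 0.96, SE 0.18, adjusted p = 0.021). mt-Nd2, another complex I subunit gene outside the compared copies, had 1334 to 3860 CPM (median 2064) in low-ratio and 1031 to 1535 CPM (median 1189) in high-ratio embryos (log2 fold change 0.83, SE 0.17, adjusted p = 0.029). The groups overlapped in 2 of 10 low-ratio embryos for both complex I genes. mt-Nd6, which lies on the opposite strand to the other protein-coding genes and overlaps mt-Nd5, rose by 1.00 (adjusted p = 0.041), and mt-Atp6, mt-Nd1, mt-Co3, mt-Cytb and mt-Co1 rose by 0.60 to 1.04. The remaining 4, mt-Nd5 (adjusted p = 0.060), mt-Nd3 (0.088), mt-Nd4l (0.22) and mt-Atp8 (0.75), had positive values of 0.30 to 0.68 that did not pass the threshold. The 5 nuclear copies, chosen after their values were seen, rose by 0.78 to 1.25 with adjusted p-values of 0.021 to 0.046 and were the only unprocessed pseudogenes of 42 tested to pass. These copies share identical stretches with their mitochondrial genes, so the rises of copy and gene cannot be taken as separate results. The 16S ribosomal RNA gene mt-Rnr2 rose by 0.76 (adjusted p = 0.046), and the 12S gene mt-Rnr1 had 0.54 (adjusted p = 0.12). Of 79 nuclear genes of oxidative phosphorylation, none passed the threshold and the median was -0.12, and without siCon 3 and 7 the ATP synthase gene Atp5b fell (adjusted p = 0.065 with and 0.050 without the pair). No member of 77 mitochondrial ribosomal proteins passed either, with a median of -0.05, and without the pair Mrps31 fell (adjusted p = 0.060 with and 0.025 without it). Without siCon 3 and 7, 7 of the 13 mitochondrial genes passed, and mt-Co1 (adjusted p = 0.059) and mt-Cytb (0.050) no longer did. On the ERCC scale the median of the 13 was -0.34.

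Lars2, the nuclear gene of mitochondrial leucyl-tRNA synthetase (chr9:123366927-123462666), had 914 to 7152 CPM in low-ratio embryos (median 1565) and 653 to 1436 CPM in high-ratio embryos (median 989). It was above every high-ratio embryo in 6 of 10 low-ratio embryos (log2 fold change 1.35, SE 0.32, adjusted p = 0.041). An entry annotated as ribosomal RNA, CT010467.1 (chr17:39846353-39848827), took 13.1% to 35.5% of mouse counts in low-ratio embryos (median 21.2%) and 12.1% to 27.7% in high-ratio embryos (median 18.7%). The 4 embryos with the highest Lars2 levels, siRif1 5, siCon 5, siRif1 1 and siRif1 4, held 26.8%, 35.5%, 33.0% and 32.9% of counts on this entry. The high-ratio embryo siRif1 7 held 27.7% of counts on it and had 1238 CPM of Lars2. The part of this entry in the Lars2 result was not tested. The entry itself had a log2 fold change of 0.51, which did not pass (adjusted p = 0.25). With this entry and the mitochondrial genome left out before scaling, 110 genes passed, and 110 of the 127 main calls still tested were among them.

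Tent4a, a non-canonical poly(A) polymerase that adds mixed tails to messengers (chr13:69497959-69534617), had 28.9 to 102 CPM in low-ratio embryos (median 50.3) and 13.4 to 34.9 CPM in high-ratio embryos (median 18.5). Only siRif1 13 and siRif1 10 of the low-ratio embryos lay within the high-ratio range (log2 fold change 1.42, SE 0.21, adjusted p = 0.0049, the smallest of all genes). Cnot6l, a deadenylase subunit of the CCR4-NOT complex that shortens maternal poly(A) tails in mouse (chr5:96070333-96164171), had 10.9 to 85.9 CPM (median 31.4) in low-ratio and 3.73 to 25.1 CPM (median 11.0) in high-ratio embryos. It was above every high-ratio embryo in 7 of 10 (log2 fold change 1.58, SE 0.35, adjusted p = 0.034). It was the 1 member of 59 genes of mRNA decay and deadenylation to pass, and the list's median was 0.00. Without siCon 3 and 7, 2 members of this list rose past the threshold, Cnot6l among them (edgeR, adjusted p = 0.025).

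Six4, a homeobox gene (chr12:73099609-73113456), had the largest increase among the genes named by rule, at a low level. It had 0 to 66.7 CPM in low-ratio embryos (median 7.89) and 0.855 to 3.62 CPM in high-ratio embryos (median 1.42), with 0 in siRif1 5 and 66.7 in siRif1 9 (log2 fold change 3.08, SE 0.61, adjusted p = 0.028). Srf, the serum response factor gene (chr17:46548329-46556175), had 11.0 to 76.4 CPM (median 20.7) in low-ratio and 3.83 to 16.3 CPM (median 10.7) in high-ratio embryos, with 7 of 10 above every high-ratio embryo (log2 fold change 1.57, SE 0.37, adjusted p = 0.037). SRF binds the CArG box, and its own promoter carries such boxes. The RefSeq promoter window of Srf (GRCm38.p6, chr17:46556113-46556412, minus strand) is shown with its 2 CArG boxes in capitals.
Srf promoter: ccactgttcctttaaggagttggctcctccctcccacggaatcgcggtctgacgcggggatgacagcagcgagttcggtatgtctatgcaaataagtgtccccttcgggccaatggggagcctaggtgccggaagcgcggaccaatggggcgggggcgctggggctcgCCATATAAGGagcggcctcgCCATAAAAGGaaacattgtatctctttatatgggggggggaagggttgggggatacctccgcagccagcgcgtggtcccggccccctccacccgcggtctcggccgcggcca
The CArG box, whose pattern reads the same on both strands, was found in the windows of 3 of 68 matched genes that rose (Srf, Mknk2 and Ppm1b, 4.41%) and of 0 of 29 matched genes that fell, against 1.43% of 7900 matched genes tested and 1.81% of all 27025 genes with a 300-base window. Srf, whose protein binds this motif, is itself counted among the 3, so these shares are a description with no test.

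Hipk2, a nuclear kinase, rose by 1.56 (SE 0.27, adjusted p = 0.012), with 12.4 to 41.8 CPM in low-ratio and 3.85 to 14.7 CPM in high-ratio embryos. Rasa1, a Ras GTPase activating protein gene, rose by 1.46 (SE 0.29, adjusted p = 0.026), and Foxo1, a forkhead factor gene under insulin signalling, by 1.48 (SE 0.31, adjusted p = 0.031). Foxo1 had 92.6 CPM in siCon 5 and at most 33.1 CPM in the other low-ratio embryos. The synaptic scaffold gene Homer1 rose by 1.73, the oxysterol-binding protein gene Osbp by 1.39, the phosphatase 2A catalytic gene Ppp2cb by 1.35, the mitochondrial iron transporter gene Slc25a28 by 1.32 and the Polycomb gene Phc2 by 1.30, with adjusted p-values of 0.029 to 0.043. Arid5b (1.56) and Zfp512b (1.43) passed with all 20 embryos, and had adjusted p-values of 0.091 and 0.082 without siCon 3 and 7. Of all 10603 genes, 3 had groups that did not overlap at all, Rock1, Cenpf and Shq1. Rock1 and Shq1 were chosen after their values were seen, and Cenpf was named by rule from the list of mitotic genes. Because the whole embryo was lysed, fewer cells of a kind and less RNA per cell cannot be told apart for any of these genes. Rock1, a serine/threonine kinase gene, had 101 to 205 CPM in low-ratio and 41.7 to 94.9 CPM in high-ratio embryos (log2 fold change 1.07, SE 0.18, adjusted p = 0.0098). Cenpf, a kinetochore protein gene, had 55.0 to 190 CPM in low-ratio and 21.2 to 53.4 CPM in high-ratio embryos (log2 fold change 0.95, SE 0.23, adjusted p = 0.042, and 0.055 without siCon 3 and 7). Shq1, an assembly factor of H/ACA ribonucleoproteins, had 1.05 to 19.6 CPM in low-ratio and 20.5 to 34.5 CPM in high-ratio embryos and did not pass (adjusted p = 0.098).

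Among genes past the threshold that were named by rule, the largest relative decrease was in Cldn4 (chr5:134945119-134946934). Cldn4 is a tight junction claudin gene that rises towards the blastocyst. It had 5.23 to 55.2 CPM in low-ratio embryos (median 23.4) and 20.2 to 216 CPM in high-ratio embryos (median 63.6). Only 3 of 10 low-ratio embryos lay below every high-ratio embryo (log2 fold change -1.79, SE 0.45, adjusted p = 0.048, and 0.091 without siCon 3 and 7). Taf6, a TFIID subunit gene (chr5:138178617-138187451), had 2.88 to 30.8 CPM (median 19.6) in low-ratio and 26.2 to 61.3 CPM (median 36.4) in high-ratio embryos, with 9 of 10 below every high-ratio embryo (log2 fold change -1.29, SE 0.33, adjusted p = 0.049, and 0.075 without siCon 3 and 7). Slc35f2, a solute carrier gene (chr9:53771538-53818154), had 22.2 to 142 CPM (median 95.1) in low-ratio and 136 to 228 CPM (median 175) in high-ratio embryos (log2 fold change -1.02, SE 0.25, adjusted p = 0.045). Its 2 lowest values, 22.2 and 23.7 CPM, were in siCon 7 and siCon 3. Kctd10, an adaptor of a ubiquitin ligase, fell by 1.12 in log2 CPM (SE 0.22, adjusted p = 0.023) with 8 of 10 low-ratio embryos below every high-ratio embryo. R3hcc1 fell by 1.04. The histone demethylase gene Kdm2b fell by 0.95, the NuRD subunit gene Mta2 by 0.89 and the purine synthesis gene Gart by 0.87, with adjusted p-values of 0.031 to 0.038. The pyruvate dehydrogenase gene Pdha1 fell by 0.82, the autophagy gene Atg9a by 0.83 and the inositol synthase gene Isyna1 by 0.83. Isyna1 had 452 to 2284 CPM in low-ratio and 1772 to 2878 CPM in high-ratio embryos (adjusted p = 0.049, and 0.053 without siCon 3 and 7). Exons of Tent4a, Foxo1, Rasa1, Zfp512b, Taf6, Kctd10, Kdm2b, Ctnnb1, Mybbp1a, Gart, Atg9a, Pdha1, Yap1, Suz12 and Sf3b3 overlap those of an antisense neighbour. The library holds no strand, so reads in a shared exon cannot be assigned by it.

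Of 76 genes of the nucleolus and of ribosome biogenesis tested, 2 fell past the threshold and none rose, where 0.321% of all genes fell. Values were below 0 for 69 of the 76, with a median of -0.24, while over all genes 5077 values were below 0 and 5526 above, with a median of 0.02. Ncl, the nucleolin gene (chr1:86344719-86359400), had 609 to 1252 CPM in low-ratio embryos (median 824) and 1066 to 2146 CPM in high-ratio embryos (median 1268), (log2 fold change -0.61, SE 0.15, adjusted p = 0.043). Mrto4, an assembly factor of the large ribosomal subunit, had 148 to 291 CPM (median 203) in low-ratio and 243 to 367 CPM (median 296) in high-ratio embryos (log2 fold change -0.59, SE 0.14, adjusted p = 0.037). Mybbp1a, a nucleolar protein gene outside the list, had 209 to 474 CPM (median 274) in low-ratio and 430 to 801 CPM (median 553) in high-ratio embryos (log2 fold change -0.88, SE 0.16, adjusted p = 0.021). For each of these 3 genes, 8 of 10 low-ratio embryos lay below every high-ratio embryo. On the ERCC scale the list's median was -1.19 against -0.93 for all genes.

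Other lists of the gene expression machinery had negative medians with few or no members past the threshold. The highest part of all genes by mean level also had a negative median, -0.13. The part of level in the list medians was not tested. None of 84 cytosolic ribosomal proteins passed (median -0.21, 74 below 0), nor did any of 42 proteasome subunits (median -0.29, 38 below 0). At an unadjusted p below 0.05, 17 of the ribosomal proteins were lower and 0 higher, and 16 of the proteasome subunits were lower and 1 higher. At that level 23 of the translation factors were lower and 4 higher, and 24 of the nucleolar genes were lower and 2 higher. Over all 10603 genes tested, 762 were lower and 1029 higher. Rpl3, a protein of the large ribosomal subunit, had 458 to 990 CPM in low-ratio and 929 to 1213 CPM in high-ratio embryos (log2 fold change -0.55, adjusted p = 0.067). Among the proteasome genes, the subunit gene Psmd4 had -0.48 (adjusted p = 0.069) and the activator gene Psme4 had 0.81 (adjusted p = 0.054, 0.048 without siCon 3 and 7, and 207 CPM in siRif1 5 against at most 126 CPM in the other low-ratio embryos). Of 54 translation factors, 39 were below 0 (median -0.28), and the 1 past the threshold was Eif4ebp2, a repressor of cap-dependent initiation, which rose. It had 32.3 to 173 CPM in low-ratio and 23.3 to 49.2 CPM in high-ratio embryos (log2 fold change 1.08, SE 0.27, adjusted p = 0.046). Of 73 RNA polymerase and general transcription factor genes, Taf6 and the TFIIH subunit gene Gtf2h4 fell (median -0.09), and neither passed without siCon 3 and 7. Gtf2h4 had -0.84 (adjusted p = 0.046, and 0.069 without this pair). Of 69 splicing genes, Sf3b3 fell by 0.68 (adjusted p = 0.038), with a list median of -0.14. Among 42 chaperone genes, the Hsp70-Hsp90 adaptor gene Stip1 fell by 0.75 (adjusted p = 0.042), with a list median of -0.08. Of 25 genes of glycolysis and pyruvate entry, Pdha1 alone passed (median -0.19), and none of 27 genes of the integrated stress response (median -0.13) or of 31 of sterol and fatty acid synthesis (median -0.12) did.

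**Figure D4:**
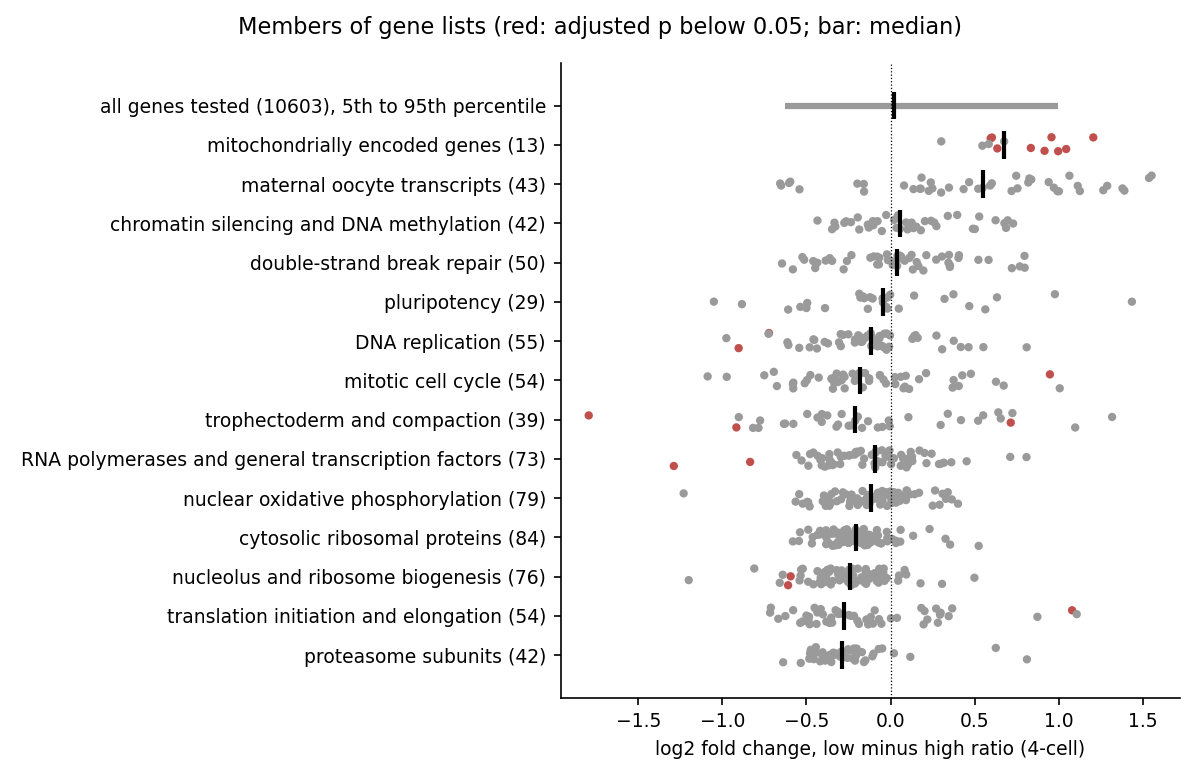
Log2 fold change, low minus high ratio (x axis), of each tested member of 14 gene lists (rows, with the number of members) in 4-cell embryos. Points are genes, red past an adjusted p of 0.05, black bars are list medians and the grey bar spans the 5th to 95th percentile of all 10603 genes; the mitochondrially encoded list has its median at 0.68 and the proteasome list at -0.29.

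Of 43 maternal transcripts of the oocyte tested, 35 had values above 0, with a median of 0.55, and none passed the threshold. At an unadjusted p below 0.05, 10 of the 43 were higher and 2 lower, where 1029 of all 10603 genes were higher and 762 lower. Nlrp4a, an oocyte NLR family gene, had 2.98 to 47.3 CPM in low-ratio and 3.03 to 10.9 CPM in high-ratio embryos (log2 fold change 1.39, SE 0.38, adjusted p = 0.061), and the oocyte homeobox gene Obox5 had 1.29 (adjusted p = 0.14). Without siCon 3 and 7 the list's median was 0.35. The mean log2 CPM of the 43 genes ran from 4.01 to 5.57 in low-ratio embryos and from 3.57 to 4.50 in high-ratio embryos, and reached at most 4.88 in the 8 low-ratio embryos other than siCon 3 and 7. Of 20 genes of the 2-cell stage, the 1 past the threshold was Obox6, a homeobox gene of a multigene family whose reads may be shared, which fell. It had 263 to 922 CPM (median 499) in low-ratio and 745 to 1228 CPM (median 938) in high-ratio embryos (log2 fold change -0.78, SE 0.18, adjusted p = 0.037). The list's median was 0.02.

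Genes of lineage and adhesion moved in different directions. Of 39 genes of trophectoderm and compaction, Cldn4 and Ctnnb1 fell and Yap1 rose, with a median of -0.21. Ctnnb1, the beta-catenin gene, had 26.7 to 93.5 CPM (median 49.6) in low-ratio and 66.8 to 148 CPM (median 95.9) in high-ratio embryos (log2 fold change -0.92, SE 0.23, adjusted p = 0.043). Yap1, the Hippo pathway coactivator gene, had 52.6 to 217 CPM (median 136) in low-ratio and 64.0 to 96.9 CPM (median 77.7) in high-ratio embryos, with 8 of 10 above every high-ratio embryo and siRif1 13 below every one (log2 fold change 0.71, SE 0.18, adjusted p = 0.046). None of 29 pluripotency genes passed (median -0.05), and Dppa2, an activator of early zygotic genes, had -0.61 (adjusted p = 0.15).

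Of 55 DNA replication genes, Mcm6 and Mcm10 fell, where 0.321% of all genes fell. Values were below 0 for 44 of the 55, against 5077 of 10603 over all genes, and the median was -0.12. Mcm6, a subunit of the replicative helicase, had 123 to 282 CPM (median 193) in low-ratio and 210 to 410 CPM (median 290) in high-ratio embryos (log2 fold change -0.72, SE 0.16, adjusted p = 0.034). Mcm10, a loading factor at origins, had 44.1 to 146 CPM (median 85.9) in low-ratio and 84.5 to 273 CPM (median 160) in high-ratio embryos (log2 fold change -0.90, SE 0.23, adjusted p = 0.045). In 7 and 5 of 10 low-ratio embryos these 2 genes lay below every high-ratio embryo. Of 54 mitotic genes, 36 were below 0 (median -0.18) and Cenpf alone passed, upwards. No gene of 50 in double-strand break repair passed (median 0.04), where the checkpoint kinase gene Chek2 had -0.58 (adjusted p = 0.069) and the translesion polymerase gene Rev3l had 0.80 (adjusted p = 0.055). None of 34 p53 targets passed (median -0.08), and none of 42 genes of chromatin silencing and DNA methylation (median 0.05), where the Polycomb gene Suz12 had 0.68 (adjusted p = 0.053, and 0.013 without siCon 3 and 7).

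Fold changes also went with the level and class of the gene. Over the lowest, middle and highest parts of the genes by mean level, each of about 3534 genes, the median log2 fold change was 0.24, 0.08 and -0.13. By transcript length it was -0.05, -0.01 and 0.15, and by GC content 0.05, 0.01 and 0.01. Of the 103 genes that rose, 62 had transcripts in the longest part, of 4159 bases or more. Long intergenic RNAs (148 tested) had a median of 0.33 and antisense RNAs (85 tested) 0.38, with none past the threshold, against 0.02 for 9662 protein-coding genes. The part of these trends in the results for single genes and for gene lists was not tested.

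Without siCon 3 and 7, list members that had missed the threshold with all 20 embryos passed it. Those not given above were picked with their values in view. The pluripotency genes Klf4 (log2 fold change 1.29, adjusted p = 0.012) and Nr5a2 (0.61, adjusted p = 0.042) rose. The helicase subunit gene Mcm7 (-0.79, adjusted p = 0.013), the mitochondrial chaperonin gene Hspd1 (-0.74, adjusted p = 0.030) and the RNA-binding protein gene Hnrnpk (-0.63, adjusted p = 0.034) fell.

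The 8-cell embryos, which took no part in choosing the 4-cell groups, were split in the same way into the 10 lowest ratios (7 siRif1 and 3 siCon) and the 10 highest (5 siRif1 and 5 siCon). There, 887 of 9807 genes passed the threshold (9.04%), 458 higher (4.67%) and 429 lower (4.37%) in low-ratio embryos. Of the 137 genes from the 4-cell stage, 132 were tested at the 8-cell stage, 128 had the same direction (97.0%) and 70 passed in the same direction (53%), with none past in the opposite direction. Over all 9397 genes tested at both stages, 66.3% had the same direction and 8.42% passed at the 8-cell stage in the same direction. All 34 genes that fell at the 4-cell stage had negative 8-cell values, with a median of -0.59. The fold changes of the 2 stages had a Pearson correlation of 0.43 and a Spearman correlation of 0.44 across the 9397 genes, which are not independent replicates and share the counting and annotation.

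**Figure D5:**
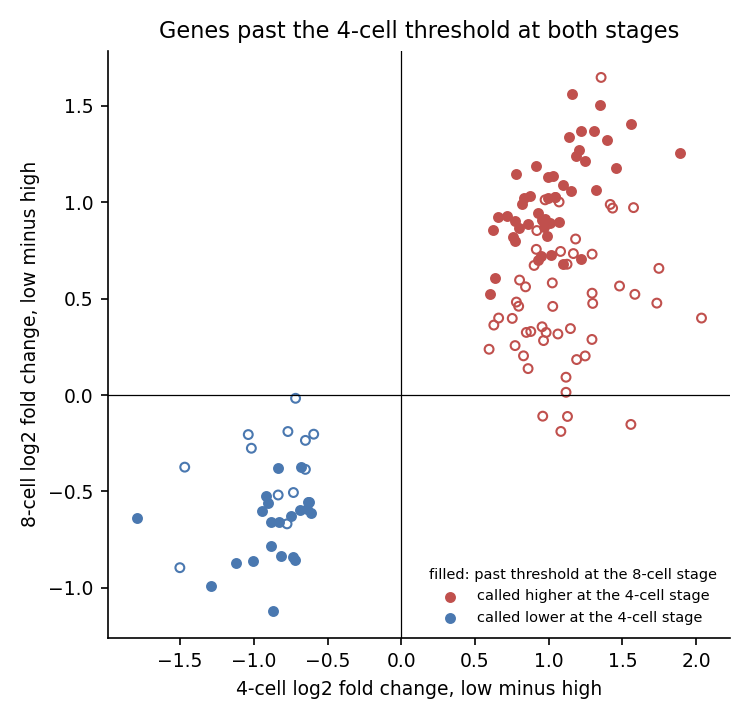
Log2 fold change, low minus high ratio, at the 8-cell stage (y axis) against the 4-cell stage (x axis) for the 132 genes past the 4-cell threshold that were tested at both stages. Red genes rose and blue genes fell at the 4-cell stage, and filled points (70 genes) also passed at the 8-cell stage in the same direction; 128 of 132 points lie in the quadrants of equal direction.

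Of the 13 mitochondrially encoded genes, 11 rose and none fell at the 8-cell stage, with a median of 0.91. Of 76 nucleolar genes, 24 fell and 2 rose (median -0.28), and Ncl fell by 0.61 on the log2 scale (adjusted p = 0.0054). Of 54 DNA replication genes, 10 fell and none rose (median -0.21), and of 41 proteasome genes 13 fell and 1 rose (median -0.25). Maternal transcripts had 4 of 29 higher (median 0.34). Medians of other lists had opposite signs at the 2 stages. Cytosolic ribosomal proteins had a median of -0.21 at the 4-cell and 0.10 at the 8-cell stage, where 15 of 83 rose and 4 fell. In the test of the difference between stages none of 86 passed, and 33 had an unadjusted p below 0.05, against 734 of 11844 genes in all. Nuclear oxidative phosphorylation had medians of -0.12 and 0.12 at the 4-cell and 8-cell stage (8 rose and 5 fell of 79 at the 8-cell stage), mitochondrial ribosomal proteins -0.05 and 0.04, double-strand break repair 0.04 and -0.09, and 2-cell genes 0.02 and -0.19. Among named genes, Rock1 rose by 0.90 (adjusted p = 0.011), Yap1 by 0.93 (adjusted p = 0.024), Hipk2 by 1.41 (adjusted p = 0.048) and Osbp by 1.32 (adjusted p = 0.012), while Gart fell by 1.12 (adjusted p = 0.0049) and Kctd10 fell by 0.87 (adjusted p = 0.0039). Tent4a had 0.99 (adjusted p = 0.079), Cnot6l 0.52 (adjusted p = 0.27), Homer1 0.48 (adjusted p = 0.53) and Foxo1 0.57 (adjusted p = 0.28), which did not pass. Some genes that fell at the 4-cell stage did not pass either. R3hcc1 had -0.20 (adjusted p = 0.53), Slc35f2 -0.28 (0.25), Mrto4 -0.20 (0.30), Gtf2h4 -0.52 (0.064) and Obox6 -0.67 (0.070). Arid5b had -0.15 (adjusted p = 0.86), and Six4 was under the count filter at the 8-cell stage.

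Tested directly over all 40 embryos, the low-minus-high difference depended on stage for 1 gene of 11844 (0.00844%). Nfil3, a bZIP repressor gene, had 8.99 to 52.1 CPM (median 19.2) in low-ratio and 4.13 to 17.6 CPM (median 8.45) in high-ratio 4-cell embryos. At the 8-cell stage it had 5.48 to 18.7 CPM (median 12.7) in low-ratio and 7.37 to 34.2 CPM (median 24.4) in high-ratio embryos. The stages' log2 fold changes were 1.26 and -1.02, and their difference of 2.27 had an adjusted p of 0.037 in edgeR. Without siCon 3 and 7 no gene passed this test.

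Whether the siRNA changed the comparison was asked with an interaction term. No gene of 10603 passed it in edgeR (0%), with 588 at an unadjusted p below 0.05, and DESeq2 called 8. In the 13 siRif1 embryos alone, 6881 genes could be tested and 17 passed the threshold. Of the 137 genes, 123 were tested there, 123 had the same direction and 14 passed the threshold. These 13 embryos also took part in selecting the 137. The shared direction was therefore largely set by the selection and is a description only. The 7 siCon embryos, with 4 in the low-ratio and 3 in the high-ratio group, include siCon 3 and 7 and were not fitted alone.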

How the data were processed

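Counts per gene were deposited by the authors, 1 file per embryo, with mouse and ERCC entries together. STAR 2.7.6a and GRCm38 are named per the submitters' processing notes, and the annotation used for counting is not stated in the labels. The unstranded count column was used. Each file held 55487 mouse and 92 ERCC entries after 4 summary entries (unmapped, multimapping, in no gene, ambiguous) were set aside, and 55227 mouse entries were named with GENCODE M21. Promoters came from RefSeq on GRCm38.p6. The members and lists were chosen with earlier results of these data known.

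Genes were filtered with filterByExpr by siRNA group (minimum count 10), scaled by TMM and tested in edgeR 4.0.16 (R 4.3.3, limma 3.58.1) with the robust quasi-likelihood test, siRNA label as covariate and Benjamini-Hochberg adjusted p below 0.05. Fold changes are low minus high ratio on the log2 scale. Totals, ratios and levels on the ERCC scale define the groups and were not tested between them, while the ratio was compared between siRNA labels. Library measures were tested by permutation in Python 3.11.15 with scipy 1.17.1. The scripts were tested on simulated data. None of 190 pairs of 4-cell libraries agreed within sampling noise (chi-square per degree of freedom at least 9.25). Reads carry no molecular identifiers, so depth gives counting error only. The lowest total, 704863 counts in siRif1 5, was in the low-ratio group.

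Genes named by rule were Rif1, the 15 largest increases and the 15 largest decreases among genes past the threshold that had a gene symbol and averaged 3 or more in log2 CPM, up to 3 past the threshold each way per list or otherwise the 2 with the smallest p, and the 5 with the smallest interaction p. Others are said to be chosen after their values were seen, as were mitochondrial copies, ribosomal RNA entries and Snrpn. Alternatives were DESeq2 1.42.0, voom, other scalings, filters, covariates and sets of embryos.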

Additional observations from a re-analysis of the deposited data

Results flagged for a closer look

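Of 174 groups of 10 embryos tested, 24 had 1 embryo far from the other 9 by Dixon's criterion. Chance gives this in about 1 of 20 groups when values are normally distributed. Here CPM were used without a log, and some groups hold the same counts, as for the level and the share of the ribosomal RNA entry. The rate need not hold for these groups. In the low-ratio group siCon 5 was highest for Foxo1 (92.6 CPM, next 33.1), Slc25a28 (85.3 CPM), Phc2 (105 CPM, next 39.2), Suz12 (653 CPM), mt-Nd4l (23.5 CPM), mt-Nd6 (850 CPM), mt-Co3 (110 CPM) and its copy Gm28437 (128 CPM), and lowest for Shq1 (1.05 CPM, next 11.3). This embryo had the lowest ratio of all, 12.9. siCon 7 was highest for Arid5b (63.7 CPM), Cenpf (190 CPM, next 121) and Bmi1 (352 CPM, next 164), and siCon 3 for Nfil3 (52.1 CPM). siRif1 9 was highest for Six4 (66.7 CPM, next 27.8) and siRif1 5 for Psme4 (207 CPM). Both embryos next to the boundary were far above the others for genes that fell: siCon 6 for Kctd10 (44.5 CPM) and Mta2 (799 CPM, next 409), and siRif1 10 for Cldn4 (55.2 CPM).

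In the high-ratio group siRif1 7 was highest for the share of the 50 most abundant genes (38.5%), and the ribosomal RNA entry CT010467.1 took 27.7% of its counts (304000 CPM after TMM scaling). siCon 1 was highest for Rif1 (629 CPM), siRif1 8 for Osbp (22.2 CPM) and siRif1 3 for Ncl (2150 CPM, next 1480). Between stages, the log2 fold change of Nfil3 differed by 2.27 (edgeR, adjusted p = 0.037).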

How the results depend on the processing

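The count of 137 genes depended on the model. It was 239 with no filter on low counts, 468 in DESeq2, 215 in limma-voom, 602 with the log2 ratio as a continuous predictor, 228 without the siRNA covariate, 0 with a depth covariate (1774 genes at an unadjusted p below 0.05), 17 in siRif1 embryos alone and 419 in a fit on all 40 embryos. It was 147 with DESeq2's size factors. Leaving out 1 embryo gave 3 to 302. Among settings chosen after seeing the data, it was 255 without siCon 6 and siRif1 10. The siRNA interaction gave 118 genes with no filter, 8 in DESeq2 and 0 to 2 with 1 embryo left out. The stage interaction gave 0 without siCon 3 and 7.

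Replicate numbers did not pair the embryos: same-numbered 4-cell pairs correlated at -0.12 to 0.19, with 1 of 7 over 0.1. With the replicate block, 0 genes passed at the 4-cell stage (1201 at an unadjusted p below 0.05) and 1 at the 8-cell stage (1553). Rif1 had -0.13 with the continuous ratio, -0.080 to 0.30 with 1 embryo left out (the lowest without siRif1 10), -0.17 with the replicate block and -0.14 without siCon 6 and siRif1 10. Without siCon 3 and 7 the siRif1 minus siCon difference in log2 ratio was -0.048, and the share of the 50 most abundant genes passed (7.91 points). Over 79 named genes, 2817 refits gave 1881 with direction and call as reported, 819 below the threshold, 113 newly past it and 4 of opposite sign. The cause of these changes was not tested. Leaving out 8-cell embryos was not run. The smallest library, siRif1 5, had 704863 counts, and leaving it out gave 83 genes.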

Other observations

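Several regulators outside the lists were also higher in low-ratio embryos, and they were chosen after their values were seen. Bmi1, a Polycomb ring finger gene, had 87.4 to 352 CPM in low-ratio embryos (median 127) and 40.8 to 95.8 CPM in high-ratio embryos (median 73.0; log2 fold change 0.97, edgeR adjusted p = 0.034). Jak2, a cytokine receptor kinase gene, had 51.1 to 186 CPM (median 83.2) in low-ratio and 25.8 to 59.9 CPM (median 45.2) in high-ratio embryos (log2 fold change 1.10, adjusted p = 0.031). Both groups overlapped for each gene. Sirt1, a NAD-dependent deacetylase gene whose exons overlap a gene on the opposite strand, rose by 1.01 (adjusted p = 0.034), and the histone methyltransferase gene Kmt2d rose by 0.80 (adjusted p = 0.029), with 94.2 to 233 CPM in low-ratio and 83.4 to 123 CPM in high-ratio embryos.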
